A study of Mus musculus with 3 samples.

Results

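Sorted pancreatic beta cells were compared with sorted ductal cells of wild-type Fbw7 mice, gene by gene, over the log2 intensities of 1 array each. A gene's level came from the brightest, by mean over the study's 3 arrays, of its probe sets that were annotated to that gene alone. A gene was compared when the higher of its 2 levels lay above the median of the single-gene probe sets on that array, called the floor here (log2 5.30 in beta cells and 5.23 in wild-type ductal cells). This kept 11139 of 19938 genes. Of these, 8575 lay above the floor on both arrays, 1398 in beta cells only and 1166 in ductal cells only.

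All mice were of C57BL/6 background and more than 6 weeks old. Beta cells came from 3 pooled mice, Fbw7 +/+; MIP-GFP, in which a green fluorescent protein constitutively marks beta cells; these mice were untreated. Wild-type ductal cells came from 6 pooled mice, Fbw7 +/+; Ck19-CreERT; R26-LSL-YFP, given tamoxifen on 5 days running and sampled 7 days after the last dose, so that the Cre driven by the cytokeratin 19 promoter switched on a yellow fluorescent protein. A further ductal array, from 6 pooled mice Fbw7 F/F with the same Ck19-CreERT and R26-LSL-YFP alleles and the same tamoxifen schedule, serves below only as a further ductal value. Each array held RNA of 30000 sorted cells, of which 18 ng was amplified. Beta and ductal cells thus differed in cell type, reporter and tamoxifen, whose effects cannot be told apart. With 1 array a group there is no test, no difference has a replicate check, and fewer cells of a type cannot be told apart from less RNA per cell.

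Beta cells make insulin, cut it from its precursor in dense secretory granules and release it when glucose metabolism closes ATP-sensitive potassium channels and opens calcium channels. They keep a small set of otherwise common genes very low, the so-called disallowed genes, some of whose products would bypass this coupling. Duct cells form a keratin-rich simple epithelium that secretes bicarbonate and water and carries acinar enzymes to the gut.

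In beta cells 710 genes (6.37% of those compared) exceeded the wild-type ductal level by 2-fold or more, and 2875 (25.8%) lay below it by as much. By any amount, 27.3% were higher, 53.8% lower and 18.9% identical, and the median difference was log2 -0.11. With each level below its floor raised to it, the counts were 327 (2.94%) higher and 2704 (24.3%) lower. Against deleted ductal cells the shares were 5.13% higher and 23.0% lower, of 11095 genes. Of the genes 2-fold apart, 19.8% were thus higher in beta cells, a share that was 37.2% after quantile normalization, 34.9% with a loess trend on the mean level removed and 40.3% with each array centred over the genes compared. The shares of 6.37% higher and 25.8% lower are the background for the 2-fold counts below. The direction depended on level. When the genes were cut into 10 bins by mean level, the lowest bin held 25.9% that were 2-fold higher in beta cells and 8.08% that were lower, and many genes of that bin entered through their higher array only. The highest bin held 6.11% higher and 61.9% lower. The beta array also had the narrower spread of values, with an SD over all probe sets of 1.57 against 2.02 in wild-type ductal and 1.97 in Fbw7-deleted ductal cells. The median over all genes was log2 0.03 with the loess trend removed, 0.09 after quantile normalization and 0.25 with the centring over compared genes, so small negative medians of lists of abundant genes are given with their loess value.

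**Figure D1:**
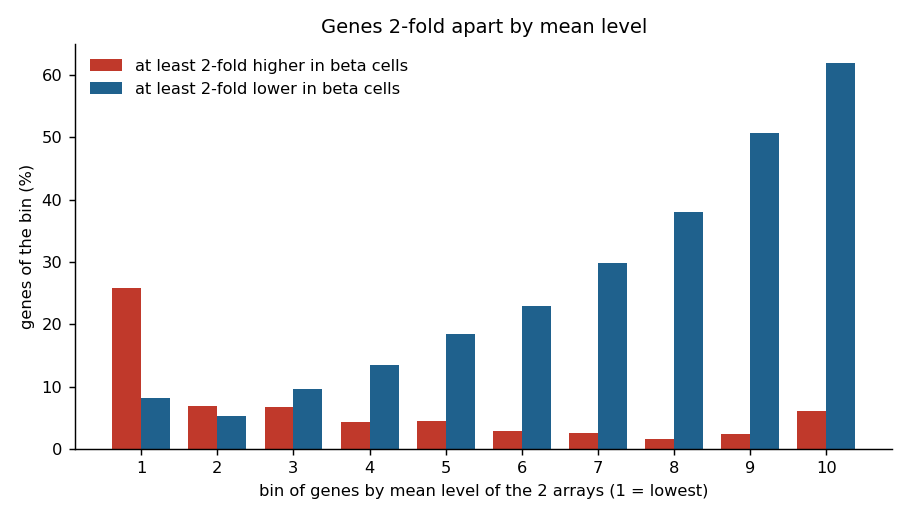
Percent of genes at least 2-fold higher (red) or lower (blue) in beta cells, relative to wild-type ductal cells, in 10 equal bins of the 11139 genes by their mean log2 level over both arrays, from lowest (1) to highest (10). The share that was lower reached 61.9% in bin 10, while the share that was higher was 25.9% in bin 1 and 6.11% in bin 10.

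**Figure D2:**
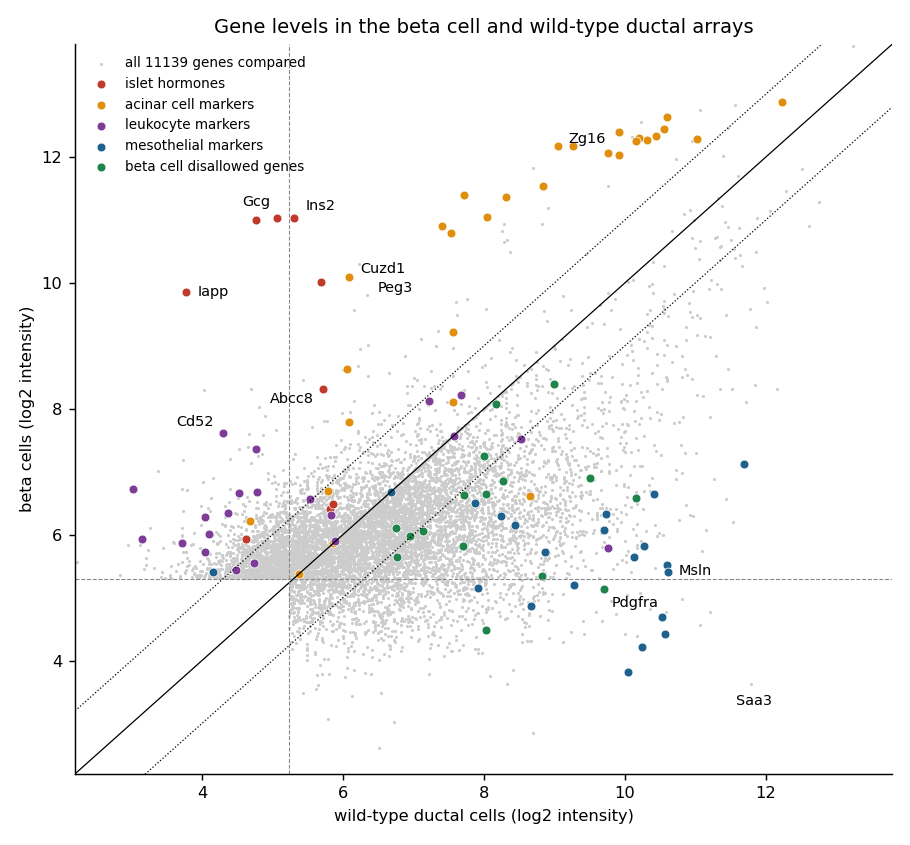
Log2 intensity of each compared gene in wild-type ductal cells (horizontal) and beta cells (vertical), 1 array each, with 5 gene lists coloured. The solid line marks equal levels, dotted lines a 2-fold difference and dashed lines the floors; islet hormones lie above the diagonal, acinar genes mostly above it, mesothelial genes mostly below and disallowed genes below it.

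Neither array held signal of the labelled cell type alone. Over all measured members, the mean log2 level of 9 islet hormones was 8.90 in beta, 5.18 in wild-type ductal and 5.53 in Fbw7-deleted ductal cells. For 31 acinar markers these means were 10.05, 8.20 and 9.47, for 22 mesothelial markers 5.57, 9.07 and 9.02, and for 28 leukocyte markers 6.01, 4.87 and 4.79. The acinar and leukocyte lists were thus higher in the beta array and the mesothelial list in both ductal arrays. What part these cell types have in the differences below was not tested. Of the 974 genes in the 46 lists used, 894 had a single-gene probe set and 695 were compared.

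**Figure D3:**
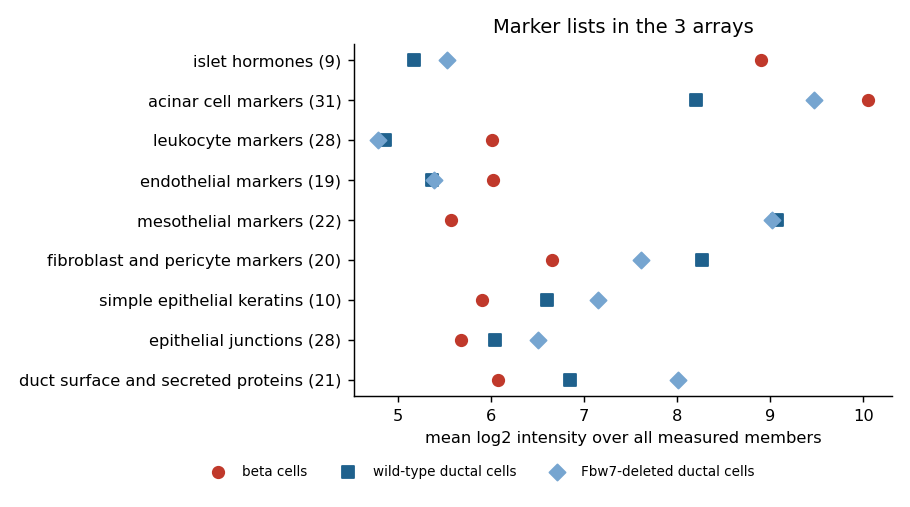
Mean log2 intensity of 9 marker lists over all measured members (number in brackets) in beta cells (circles), wild-type ductal cells (squares) and Fbw7-deleted ductal cells (diamonds), 1 array each. Hormones, acinar, leukocyte and endothelial markers are highest in the beta array, and mesothelial and fibroblast markers are higher in the ductal arrays.

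Islet hormones led the genes that were higher in beta cells. All 9 hormone genes compared were higher in beta cells and 7 of them at least 2-fold, against 6.37% of all genes, with a median difference of log2 4.33. A fold or log2 difference in which the lower level lay below its floor is taken against that floor and written as a bound, with "at least", "or more" or "or less". Measured against the floor, 6 of the hormone genes were 2-fold higher, and 4 of the 9 had entered through the beta array alone. Ins2, an insulin gene, read 11.04 in beta, 5.31 in wild-type ductal and 5.87 in Fbw7-deleted ductal cells, 53.0-fold above the wild-type level. Iapp, which encodes the islet amyloid polypeptide released with insulin, read 9.86, 3.78 and 4.21 in the same order and was at least 24.6-fold higher. Ucn3, a peptide of mature mouse beta cells, read 5.93 in beta and 4.62 in wild-type ductal cells, at least 1.62-fold higher. Both ductal arrays were low for all 3 genes.

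Hormones of the other islet cell types differed as much in the array of sorted beta cells. Gcg, the glucagon gene of alpha cells, read 11.003 in beta, 4.77 in wild-type ductal and 5.75 in Fbw7-deleted ductal cells and was at least 54.5-fold higher. Sst, the somatostatin gene of delta cells, read 11.04, 5.06 and 5.40 and was at least 55.8-fold higher. Pyy, the peptide YY gene, was 20.1-fold higher and Ppy, the pancreatic polypeptide gene, 6.09-fold higher. Npy and Ghrl, which encode neuropeptide Y and ghrelin, were less than 2-fold apart, with differences of 0.62 and 0.58. Of 12 markers of non-beta islet cells, these hormones included, 5 were at least 2-fold higher and 1 lower. Ttr, the transthyretin gene, read 9.24 in beta, 7.35 in wild-type ductal and 9.44 in Fbw7-deleted ductal cells, so that it was above the one ductal array and below the other.

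The promoters of 3 of these hormone genes are shown because they carry elements long known from islet hormone genes. Each is the RefSeq window (assembly GRCm38.p6) from 250 bases before to 50 bases after the start of transcription, 5′ to 3′ on the gene's strand. It lies at chr6:142298175-142298474 on the plus strand for Iapp, at chr2:62483604-62483903 on the minus strand for Gcg and at chr16:23890795-23891094 on the minus strand for Sst. Capitals mark the E-box CAGATG or its reverse complement, the TATA box TATAAA or its reverse complement, the cyclic AMP response element TGACGTCA and the homeodomain element CTAATG, searched on both strands.
Iapp: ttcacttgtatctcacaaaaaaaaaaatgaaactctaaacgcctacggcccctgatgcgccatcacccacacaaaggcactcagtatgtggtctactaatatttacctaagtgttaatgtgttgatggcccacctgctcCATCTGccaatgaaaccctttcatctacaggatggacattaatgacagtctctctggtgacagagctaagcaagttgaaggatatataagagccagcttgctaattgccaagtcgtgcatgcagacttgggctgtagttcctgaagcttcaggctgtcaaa
Gcg: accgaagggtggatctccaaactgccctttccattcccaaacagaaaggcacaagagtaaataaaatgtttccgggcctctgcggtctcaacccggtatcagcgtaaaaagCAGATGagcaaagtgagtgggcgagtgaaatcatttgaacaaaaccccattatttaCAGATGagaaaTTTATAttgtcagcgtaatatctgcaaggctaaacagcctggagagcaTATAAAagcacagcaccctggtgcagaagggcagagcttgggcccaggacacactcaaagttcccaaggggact
Sst: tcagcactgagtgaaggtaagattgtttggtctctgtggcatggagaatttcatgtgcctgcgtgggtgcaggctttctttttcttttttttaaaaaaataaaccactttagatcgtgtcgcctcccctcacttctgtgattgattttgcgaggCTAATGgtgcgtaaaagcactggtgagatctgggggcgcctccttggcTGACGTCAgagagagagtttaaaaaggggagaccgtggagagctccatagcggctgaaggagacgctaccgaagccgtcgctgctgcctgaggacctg
The E-box, a sequence bound by NeuroD1-type factors, was found at position -111 in Iapp and at -139 and -83 in Gcg, counted from the start of transcription. It occurred in 17.2% of all 32851 promoter windows and in 11.7% of the 11266 windows of compared genes. With levels raised to the floor, genes at least 4-fold higher in beta cells had 42 windows, of which 31.0% held the E-box. The TATA box was in 13.6% of all windows, 7.88% of those of compared genes and also 31.0% of those 42. The cyclic AMP response element, from -48 to -41 in Sst, was in 1.79%, 2.81% and 9.52% in the same order. For the homeodomain element of Sst the shares were 7.36%, 4.74% and 4.76%. A match describes the letters only, and windows of 1 gene can overlap.

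Genes of the secretory granule were mostly higher in beta cells as well, 7 of those compared having entered through the beta array alone. Of 12 genes for granins and prohormone processing, 9 were at least 2-fold higher in beta cells and 2 at least 2-fold lower, with a median of 1.70. The granin Scg3 read 7.19 in beta, 3.73 in wild-type ductal and 3.85 in Fbw7-deleted ductal cells, at least 3.88-fold higher. Slc30a8, which loads granules with the zinc that crystallizes insulin, read 6.84, 4.02 and 4.23, at least 3.04-fold higher. Chga, chromogranin A, was at least 4.14-fold and Scg2, secretogranin II, at least 2.27-fold higher. Ero1b, the islet oxidase that forms disulfide bonds in proinsulin, was 3.77-fold higher. The granule membrane proteins Ptprn and Ptprn2 differed by 1.43 and at least 1.10, and Scg5, the chaperone of the prohormone convertase PC2, by 0.26.

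Cpe and Pam, enzymes that act later on the same precursors, went the other way. Cpe, the carboxypeptidase that trims basic residues from cleaved prohormones, read 5.43 in beta, 7.67 in wild-type ductal and 7.92 in Fbw7-deleted ductal cells, 4.71-fold lower in beta cells. Pam, which amidates peptides, read 6.23, 8.58 and 7.41, 5.12-fold lower. The prohormone convertase Pcsk1 was below the floor on all 3 arrays (4.73, 3.69 and 3.69).

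Vesicle fusion genes differed less. Of 15 genes of regulated exocytosis, 4 were at least 2-fold higher and 1 lower, with a median of 0.51. None of the 4 stayed 2-fold higher once levels below the floor were raised to it, and the median was 0.35. Snap25, a SNARE of the plasma membrane, read 5.72 in beta and 3.77 in wild-type ductal cells. Syp, the vesicle protein synaptophysin, differed by at least 0.71 and Syt7, a calcium sensor of insulin release, by at least 0.83. Rab3d, a small GTPase of zymogen and other granules, differed by -0.96 and the priming factor Unc13a by -1.11. Of 22 measured synaptotagmins 11 were compared, 7 of them only through the beta array, and none was 2-fold apart with levels raised to the floor.

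Among genes that couple glucose to secretion, Abcc8 stood apart. Of 22 measured members 11 were compared, and 7 of these entered through the beta array alone, so that their direction was fixed by the entry rule. In this list 4 genes were 2-fold higher on levels as deposited, but with levels raised to the floor Abcc8 alone was, and the median was 0.54. Abcc8, the sulfonylurea receptor subunit of the ATP-sensitive potassium channel, read 8.03 in beta, 4.82 in wild-type ductal and 4.97 in Fbw7-deleted ductal cells, at least 6.94-fold higher. Its pore subunit Kcnj11 read 5.68 and 5.10 in beta and wild-type ductal cells, a difference of at least 0.44. Atp2a3, a calcium pump of the endoplasmic reticulum, differed by at least 0.75, the guidance receptor Robo2 by at least 0.62 and the ectonucleotidase Entpd3 by at least 0.48. The calcium channel subunits Cacna1d and Cacna1a differed by at least 0.12 and 0.76. The glucose transporter Slc2a2 read 6.05 in beta, 5.64 in wild-type ductal and 6.90 in Fbw7-deleted ductal cells, so it was higher than in the one ductal array and lower than in the other. G6pc2, the islet glucose-6-phosphatase, and Glp1r, the receptor of glucagon-like peptide 1, stayed below the floor on every array, at 4.83 and 5.20 in beta cells. Of 36 potassium channel subunits compared, 16 entered through the beta array alone, and with levels raised to the floor 2 were at least 2-fold higher and 0 lower.

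Of 13 endocrine transcription factors compared, 4 were at least 2-fold higher in beta cells, none was 2-fold lower, and the median was 0.60. Of the 13, 8 entered through the beta array alone, so that their direction was fixed by the entry rule. With levels raised to the floor Mlxipl alone stayed 2-fold higher, and the median was 0.41. Against deleted ductal cells 4 were 2-fold higher and 2 lower. Mlxipl, the glucose-responsive factor ChREBP, read 6.84 in beta, 5.04 in wild-type ductal and 5.25 in Fbw7-deleted ductal cells, at least 3.04-fold higher. Pax6, required by all islet hormone cells, read 5.31, 3.57 and 3.73. Nkx6-1, a factor of beta cell identity, differed by at least 0.96 and Insm1, a zinc finger factor of endocrine cells, by at least 0.61. Isl1, a LIM-homeodomain factor, differed by -0.66. Several defining factors gave no usable signal in either cell type. Pdx1 read 5.14 in beta and 4.25 in wild-type ductal cells, Neurod1 3.996 and 2.98, and Rfx6 5.19 and 3.55, all below the floor. Mafa, in contrast, lay above the floor and was identical, at 5.49, on all 3 arrays.

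**Figure D4:**
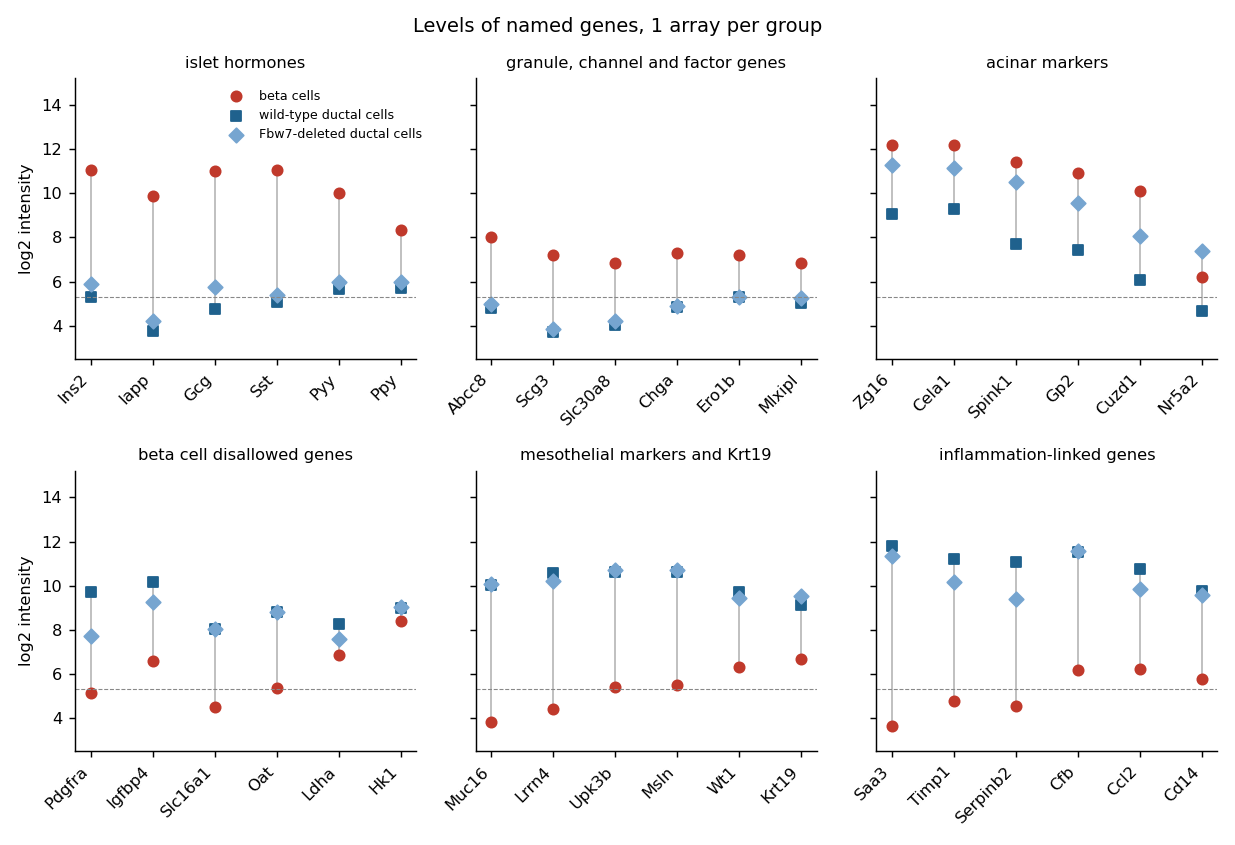
Log2 intensity of 36 named genes in beta cells (circles), wild-type ductal cells (squares) and Fbw7-deleted ductal cells (diamonds), 1 array each, in 6 groups; the dashed line is the floor of the beta array. Hormones and granule genes sit near or below the floor in both ductal arrays, acinar genes in deleted ductal cells lie closer to beta cells, and mesothelial and inflammation-linked genes are high in both ductal arrays.

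Disallowed genes were lower in beta cells. All 16 read lower than in wild-type ductal cells on levels as deposited, against 53.8% of all genes, although 3 were higher by loess and 3 after quantile normalization. Of the list 11 (68.8%) were at least 2-fold lower, against 25.8%, with a median of -1.26 (-0.55 by loess). By loess 6 were at least 2-fold lower and 1 higher, and after quantile normalization also 6 and 1. The share of 68.8% was near the 66.7% of 12 genes often used as references, whose median was -1.61. It was also near the 61.9% in the bin of the highest mean level. Slc16a1, the monocarboxylate transporter MCT1 that would let pyruvate from the blood trigger insulin release, read 4.49 in beta, 8.03 in wild-type ductal and 8.06 in Fbw7-deleted ductal cells, at least 6.602-fold lower. Ldha, which makes lactate from pyruvate, read 6.85, 8.27 and 7.59, 2.69-fold lower. Pdgfra, a platelet-derived growth factor receptor, was at least 21.2-fold lower, Igfbp4, a binding protein of insulin-like growth factors, 11.9-fold lower and Oat, ornithine aminotransferase, 11.1-fold lower. Pdgfra is also a fibroblast marker. Hk1, a hexokinase of low Michaelis constant, differed by -0.60, Rest, a repressor of neuronal genes, by -0.64 and Zyx, a focal adhesion protein, by -0.08. By loess Hk1 was at 0.94 and Zyx at 1.32, on the beta side.

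Other glycolysis genes were lower too, with 14 of 22 genes at least 2-fold lower, none 2-fold higher and a median of -1.43 (-1.23 by loess). The transporter Slc2a1 was 4.30-fold lower, the aldolase Aldoa 8.56-fold lower and Ldhb, the other lactate dehydrogenase subunit, 7.08-fold lower. Hk2 read 5.12 in beta and 5.27 in wild-type ductal cells, and Pfkm and Pdk1 were identical on both arrays. Ldha, Hk1 and Slc16a1 stand in this list as well as among the disallowed genes.

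Acinar genes were higher in the array of beta cells. Of 29 compared, 23 were at least 2-fold higher than in wild-type ductal cells and 1 lower, with a median of 2.10. Against deleted ductal cells 8 of 29 were at least 2-fold higher and the median was 0.70. Cuzd1, a zymogen granule protein, read 10.10 in beta, 6.09 in wild-type ductal and 8.08 in Fbw7-deleted ductal cells, 16.1-fold above the wild-type level. Spink1, the trypsin inhibitor, read 11.40, 7.72 and 10.50, and Gp2, the main glycoprotein of zymogen granule membranes, 10.91, 7.41 and 9.54. Cela1, an elastase, was 7.53-fold and Zg16, a zymogen granule lectin, 8.68-fold higher. Cpa1, a carboxypeptidase, read 12.30, 11.03 and 12.38, high on every array and lowest in wild-type ductal cells. For these 6 genes the deleted ductal level lay above the wild-type ductal level. Gatm, which makes the creatine precursor, went the other way at -2.04, and the acinar factor Bhlha15 was identical. Reg genes, which encode secreted lectins of acinar and stressed islet cells, were also higher than in wild-type ductal cells in 4 of 4 compared, led by Reg3d (8.46 against 5.44) and Reg1 (12.56 against 10.24). Against deleted ductal cells 1 of 6 Reg genes was 2-fold higher and 3 were lower, with a median of -0.66. Part of the list is also expressed outside acinar cells, such as the trefoil peptide Tff2, which stands in the duct list too.

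Leukocyte markers were at least 2-fold higher in the array of beta cells in 12 of 21 genes, with a median of 1.69. Of the 21, 13 entered through the beta array alone, so that their direction was fixed by the entry rule. With levels raised to the floor 8 were 2-fold higher and 1 lower, and the median was 0.70. Above the floor were 21 of 28 members in beta and 8 in wild-type ductal cells. Lyz2, the lysozyme of myeloid cells, read 6.73 in beta, 3.02 in wild-type ductal and 3.08 in Fbw7-deleted ductal cells, at least 2.82-fold higher. Cd52, a surface peptide of lymphocytes and macrophages, read 7.62, 4.30 and 4.37, and Ptprc, the pan-leukocyte antigen CD45, 5.88, 3.72 and 3.995. Cd14, the endotoxin co-receptor, went the other way, at 5.79, 9.76 and 9.60, 15.7-fold lower in beta cells. Cd74, the invariant chain, differed by -0.999.

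Endothelial markers were at least 2-fold higher in 5 of 16 genes, with a median of 0.79. Of the 16, 8 entered through the beta array alone, so that their direction was fixed by the entry rule. With levels raised to the floor 4 were 2-fold higher and 1 lower, and the median was 0.47. Emcn, the endothelial sialomucin endomucin, read 7.02 in beta, 3.37 in wild-type ductal and 4.14 in Fbw7-deleted ductal cells. Pecam1, the junction protein CD31, was at least 2.83-fold higher, whereas Cd34, a sialomucin of progenitors, endothelium and stroma, was 11.2-fold lower. Of red cell markers the anion exchanger Slc4a1 differed by at least 0.92, and of 3 Schwann cell and neural genes none was 2-fold apart, Ngfr being the highest at 0.87. Xist, the RNA of the inactive X chromosome, read 6.13 in beta, 8.68 in wild-type ductal and 8.84 in Fbw7-deleted ductal cells. The Y-linked genes Kdm5d, Eif2s3y and Uty were below the floor on all 3 arrays. The sexes of the pooled mice are not given in the labels.

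Keratins of simple epithelia were lower in beta cells, 4 of 6 at least 2-fold, with a median of -1.65 and of -0.33 by loess. Krt19, whose promoter drives the Cre of the ductal mice and which mesothelium and other simple epithelia also express, read 6.71 in beta, 9.13 in wild-type ductal and 9.53 in Fbw7-deleted ductal cells, 5.36-fold lower. Krt7 was 3.88-fold and Krt18 3.54-fold lower. Krt8, the partner of Krt18, read 7.90, 9.38 and 10.34, a difference of -1.49 that was 0.046 by loess. Krt23 read 5.57 in beta, 5.37 in wild-type ductal and 6.89 in Fbw7-deleted ductal cells.

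Other duct genes did not move as a block. Among duct surface and secreted proteins, 9 of 18 were at least 2-fold lower in beta cells and 1 higher, with a median of -0.63 against wild-type and -2.32 against deleted ductal cells. Over all 21 measured members, without a floor, the median was 0.025. Vtcn1, an inhibitory surface protein of the B7 family, read 4.60 in beta, 8.60 in wild-type ductal and 8.55 in Fbw7-deleted ductal cells, at least 9.85-fold lower. Cp, the copper oxidase ceruloplasmin, was at least 11.5-fold and Tspan8, a tetraspanin of epithelia, at least 5.60-fold lower. Tff2 was 9.63-fold higher and Pigr, the receptor that carries IgA across epithelia, read 5.38 in beta, 4.44 in wild-type ductal and 7.99 in Fbw7-deleted ductal cells. Of genes for fluid and bicarbonate transport, 6 of 12 were at least 2-fold lower, none 2-fold higher, and the median was -1.62. That median was -0.99 by loess, -0.74 against deleted ductal cells and -0.19 over all 18 measured members. Ano1, a calcium-activated chloride channel, was at least 9.25-fold lower, the water channel Aqp1 7.23-fold lower and the bicarbonate cotransporter Slc4a4 6.29-fold lower. Sctr, the secretin receptor, read 5.67 in beta, 5.26 in wild-type ductal and 6.00 in Fbw7-deleted ductal cells.

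Some defining duct genes were low in the wild-type ductal array itself. Cftr, the chloride channel of duct cells, read 4.95 there and 4.95 in beta cells, Prom1, the apical protein prominin, 4.91 and 4.91, and both were below the floor. Epcam, a surface protein of epithelial cells, read 5.42 in beta and 5.42 in wild-type ductal cells, and 7.22 in Fbw7-deleted ones. Of 19 junction genes 6 (31.6%, against 25.8% of all genes) were at least 2-fold lower, none 2-fold higher, and the median was -0.06 (0.09 by loess). F11r, a junctional adhesion molecule, was at least 15.7-fold lower and the claudin Cldn15 8.09-fold lower, whereas Cdh1, the epithelial cadherin, read 6.92 in beta, 6.54 in wild-type ductal and 9.17 in Fbw7-deleted ductal cells. The 13 duct transcription factors had a median of 0.06, which was -0.01 with each array centred and -0.88 against deleted ductal cells. Sox9, the factor of duct identity, differed by -0.78, Tead1, a partner of Yap, by -2.40 and Gata6, a GATA factor, by -2.39. Nr5a2, which also serves acinar cells, read 6.21 in beta, 4.68 in wild-type ductal and 7.37 in Fbw7-deleted ductal cells.

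Mesothelial genes, which mark the serosal lining of abdominal organs, had the lowest median of the 46 lists. Of 21 genes 19 (90.5%) were at least 2-fold lower than in wild-type ductal cells and 1 higher, with a median of -3.81. Against deleted ductal cells 18 of 21 were lower, with a median of -3.69. Muc16, a surface mucin, read 3.82 in beta, 10.05 in wild-type ductal and 10.07 in Fbw7-deleted ductal cells, at least 26.9-fold lower. Lrrn4, a leucine-rich repeat protein, read 4.42, 10.57 and 10.20, and Upk3b, a uroplakin of mesothelium, 5.41, 10.62 and 10.70. Msln, mesothelin, was 33.9-fold lower, Gpm6a, a membrane glycoprotein, at least 30.6-fold lower and Wt1, the Wilms tumour factor, 10.6-fold lower. Both ductal arrays were high and the beta array low for these 6 genes. Tcf21, a factor of visceral mesenchyme, read 5.41 in beta and 4.16 in wild-type ductal cells, the latter below the floor, and Tmem151a was identical. The list was first drawn up after the largest differences of these arrays had been seen, so its direction is a description only.

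Fibroblast and pericyte markers were at least 2-fold lower in 11 of 18 genes and higher in 1, with a median of -1.70 (-0.55 by loess). Fn1, fibronectin, read 6.56 in beta, 11.44 in wild-type ductal and 10.12 in Fbw7-deleted ductal cells, 29.4-fold lower. Col1a2, a fibrillar collagen chain, was 21.1-fold and Col3a1 7.55-fold lower. The pericyte regulator Rgs5 differed by at least 0.07. Collagens in general divided, since 5 of 25 were at least 2-fold lower, 1 higher and the median was 0.00. The basement membrane chain Col4a2 differed by 0.84 and the transmembrane collagen Col13a1 by at least 1.18, on the beta side.

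Cytoskeleton genes were mostly on the ductal side on levels as deposited, and matrix receptor genes less so. Of 17 integrin and laminin genes 6 (35.3%, against 25.8% of all genes) were at least 2-fold lower, and 4 by loess. Their median was -0.66 (-0.29 by loess). None was higher on levels as deposited, although 6 were higher by loess. Itgav, an integrin subunit that binds fibronectin and vitronectin, was 10.6-fold lower and Itgb1, the common beta subunit, 7.22-fold lower. Of 18 actin and contraction genes 11 were at least 2-fold lower and none higher by any amount (7 by loess), with a median of -1.31 (-0.27 by loess). Tagln2, an actin-binding protein, was 24.4-fold and Csrp1, a LIM-domain protein of actin bundles, at least 12.7-fold lower. Among calcium-binding S100 proteins and annexins 14 of 19 were at least 2-fold lower (8 by loess), with a median of -2.06 (-0.67 by loess). S100a4 (5.05 against 10.04) and Anxa8 (4.45 against 9.24) led this list.

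**Figure D5:**
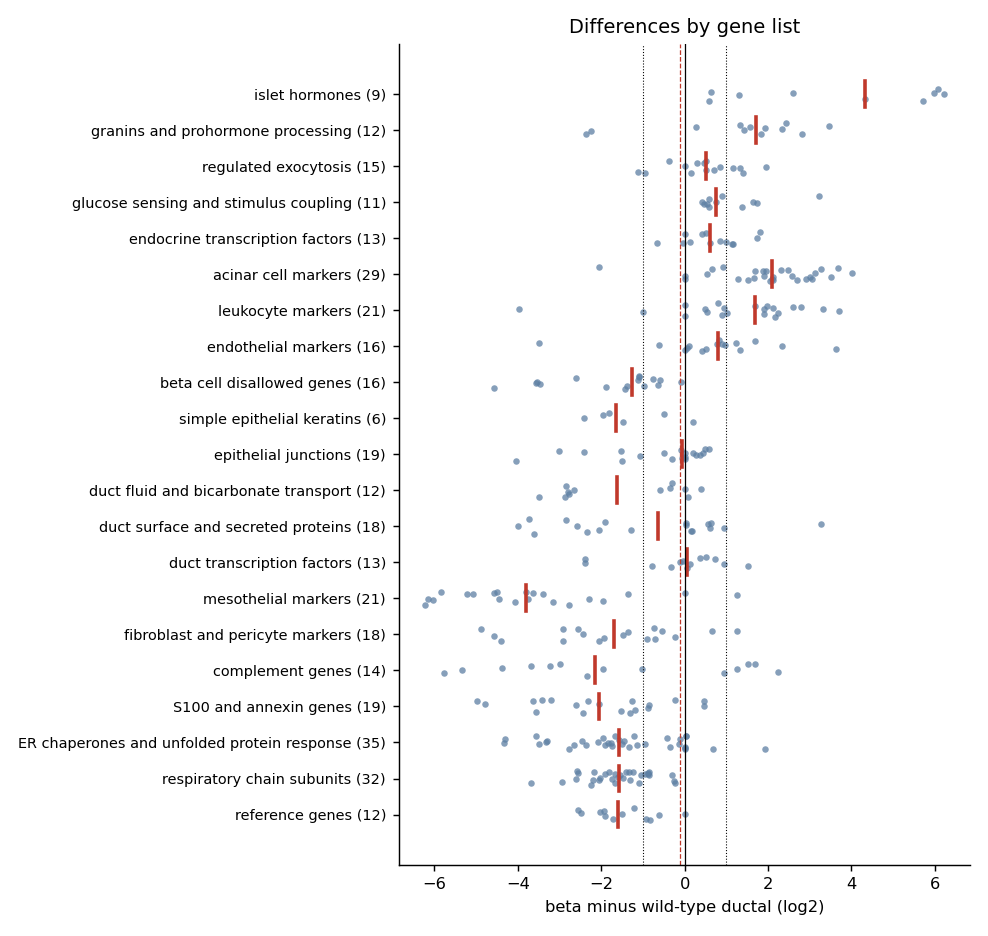
Difference in log2 intensity, beta minus wild-type ductal cells, of each compared member (blue points, jittered vertically) of 21 gene lists, with the list median in red and the number of members in brackets; dotted lines mark 2-fold and the dashed red line the median of all 11139 genes. Hormones, granule genes and acinar markers lie to the right, mesothelial markers furthest to the left, and duct lists spread across 0.

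Saa3, a serum amyloid A protein of acute inflammation, had the largest difference on the ductal side with levels raised to the floor. It read 3.63 in beta, 11.79 in wild-type ductal and 11.36 in Fbw7-deleted ductal cells, at least 89.7-fold lower. Of 6 acute phase genes compared, 5 were at least 2-fold lower, among them Hp, haptoglobin (at least 9.46-fold), and Lcn2, which sequesters bacterial siderophores (12.2-fold). Only 6 of 15 measured members passed the floor, and without a floor the list median was 0.27. Next to Saa3 in size came 2 genes of the list of the plasminogen system and metalloprotease inhibitors. Timp1, an inhibitor of metalloproteases, read 4.77, 11.21 and 10.17, at least 59.9-fold lower, and Serpinb2, an inhibitor of plasminogen activators, 4.57, 11.07 and 9.38, at least 54.6-fold lower. In that list 11 of 15 genes were at least 2-fold lower and none 2-fold higher.

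Complement genes went in opposite directions, with 9 of 14 at least 2-fold lower in beta cells and 4 higher, of which 1 stayed so with levels raised to the floor. Cfb, factor B of the alternative pathway, read 6.201 in beta, 11.54 in wild-type ductal and 11.58 in Fbw7-deleted ductal cells, 40.4-fold lower, and the protease C1s1 was at least 29.1-fold lower. The macrophage products C1qb and C1qc read 6.28 and 5.73 in beta cells against 4.05 and 4.04 in wild-type ductal cells, below the floor there, and both stand in the leukocyte list. Chemokines divided in the same manner, 4 of 20 being at least 2-fold higher and 8 lower. Ccl3, a macrophage chemokine, read 7.37 in beta, 4.53 in wild-type ductal and 4.55 in Fbw7-deleted ductal cells. Ccl2, which attracts monocytes, read 6.23, 10.78 and 9.87, and Cxcl1, which attracts neutrophils, 6.09, 10.12 and 9.38. Among 34 interleukins and their receptors Il1b was at 2.36 or more and Il6 at -2.61 or less. Interferon-induced genes were at least 2-fold lower in 9 of 14 (64.3%, against 25.8% of all genes), led by Oasl2 (6.00 against 8.85). Their median was -1.38 (-0.85 by loess), and by loess 4 of them were at least 2-fold lower.

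The promoters of Saa3 (chr7:46715627-46715926, minus strand) and Cxcl1 (chr5:90890995-90891294, plus strand), in the same RefSeq windows of GRCm38.p6, are shown as examples of ductal-side genes. Capitals mark the C/EBP pattern TTGCNNAA in Saa3 and the NF-kappaB pattern (GGG, any 2 bases, TTTCC) in Cxcl1, in either orientation.
Saa3: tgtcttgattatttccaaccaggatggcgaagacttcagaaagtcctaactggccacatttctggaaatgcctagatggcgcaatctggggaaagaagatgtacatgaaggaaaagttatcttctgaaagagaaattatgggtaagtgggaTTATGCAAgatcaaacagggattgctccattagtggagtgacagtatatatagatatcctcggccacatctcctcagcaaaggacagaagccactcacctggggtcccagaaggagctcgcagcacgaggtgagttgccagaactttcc
Cxcl1: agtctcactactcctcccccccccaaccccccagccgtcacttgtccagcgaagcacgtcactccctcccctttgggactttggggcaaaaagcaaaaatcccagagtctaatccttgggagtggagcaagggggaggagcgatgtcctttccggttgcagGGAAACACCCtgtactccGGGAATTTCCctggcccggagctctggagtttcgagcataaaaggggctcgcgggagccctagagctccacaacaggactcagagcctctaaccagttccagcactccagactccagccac
The C/EBP pattern, from -99 to -92 in Saa3, was in 10.8% of all windows and 8.4% of the windows of compared genes. It was in 10.9% of the 981 windows of genes at least 4-fold lower in beta cells with levels raised to the floor. In the 13 windows of the acute phase list the share was 69.2%. Windows of a list are of its genes whether compared or not, and only 6 of 15 measured acute phase genes were compared. The NF-kappaB pattern, at -89 and -71 in Cxcl1, was in 1.63% of all windows, 1.62% of those of compared genes and 2.45% of those 981. It was in 20.8% of the 24 windows of the chemokine list, whose members went in opposite directions.

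Of growth factor pathways, the insulin-like growth factor system was on the ductal side. Of 13 genes of the insulin-like growth factor system 8 were at least 2-fold lower (5 by loess) and none 2-fold higher, with a median of -1.39 (-0.71 by loess). The binding proteins Igfbp6 and Igfbp5 were 22.5-fold and 12.9-fold lower, the insulin receptor Insr 6.01-fold lower, and Igfbp2 differed by at least 0.70. Of 24 genes of the TGF-beta and BMP pathway 9 (37.5%) were at least 2-fold lower, with a median of -0.54 (-0.22 by loess), the receptor Bmpr2 at -3.12 and the co-receptor Tgfbr3 at -2.99, while the BMP antagonist Nog was at 0.16 or more. Egfr, the epidermal growth factor receptor, read 5.92 in beta, 8.42 in wild-type ductal and 7.44 in Fbw7-deleted ductal cells, the only member of its list of 6 that was 2-fold apart, a share of 16.7% against 25.8%. Notch genes had a median of 0.00 over 14, 14.3% of which were 2-fold lower, with Rbpj, the DNA-binding effector, at -1.95 and the target Heyl at 0.70 or more. In the Hippo list 7 of 21 genes were at least 2-fold lower, a share of 33.3%, and the kinase adaptor Mob1a was lowest at -2.73. Retinoid genes had a median of -0.27 (0.14 after quantile normalization), with the synthesis enzymes Rdh10 and Aldh1a2 21.7-fold and at least 10.3-fold lower. Aldh1a2 is also in the mesothelial list.

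Genes of protein folding, which beta cells are known to use heavily, were mostly lower. Of 35 genes for chaperones of the endoplasmic reticulum and its stress response 23 (65.7%) were at least 2-fold lower and 1 higher, with a median of -1.58 and of -0.26 by loess. Pdia3, a disulfide isomerase, read 5.32 in beta and 9.64 in wild-type ductal cells, and Hspa5, the chaperone BiP, 7.99 and 9.66. Ero1b was the member that was higher, and Trib3, a stress-induced pseudokinase, differed by at least 0.20. The isomerase Pdia2, outside the list and known for high expression in pancreas, was 10.7-fold higher.

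Genes of the respiratory chain were all lower in beta cells on levels as deposited (7 were higher by loess), 24 of 32 by at least 2-fold, with a median of -1.58 and of -0.60 by loess. Ndufa4 was lowest at -3.69, and the complex I subunit Ndufs1 closest to equal at -0.23. Of 38 genes with proteasome symbols 30 were at least 2-fold lower (16 by loess), with a median of -1.99 (-0.87 by loess). Psmb5, a catalytic subunit, was at -3.41 or less. Cytosolic ribosomal proteins had a median of -1.15 over 24, which turned to 0.28 by loess. Fatty acid synthesis was at least 2-fold lower in 12 of 16 genes and sterol synthesis in 11 of 17, with Acsl4, an acyl-CoA ligase, at -4.10 or less and Idi1, an isomerase of the sterol pathway, at -1.42 or less. The 12 genes often used as references had a median of -1.61 (-0.60 by loess), and 8 of them were at least 2-fold lower. Ppia read 8.47 in beta and 10.95 in wild-type ductal cells, and Tbp was identical. A difference of this size therefore also occurred in genes chosen for stable expression.

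Of 28 cell cycle genes 13 (46.4%, against 25.8% of all genes) were at least 2-fold lower and none 2-fold higher on levels as deposited. Their median was -0.82 (-0.56 by loess). By loess 8 were at least 2-fold lower and 3 higher, and after quantile normalization also 8 and 3. Rrm1 and Pcna, which serve DNA synthesis, differed by -3.12 or less and -2.98, and Mki67, the proliferation antigen, read 5.69 in beta and 6.83 in wild-type ductal cells. Of 27 early response genes, which tissue dissociation is known to induce, 8 (29.6%) were at least 2-fold lower, near the 25.8% of all genes. Their median of -0.50 was 0.35 after quantile normalization and 0.47 by loess. Fos differed by -0.66 and Ier3 by -3.05. Amino acid transporters were at least 2-fold lower in 9 of 22 genes (40.9%, and 7 genes by loess), with the glutamine transporter Slc1a5 at -2.98. Among 185 solute carriers of every kind 8 were at least 2-fold higher (3 with levels raised to the floor). Lower by as much were 53 (28.6%), also near the 25.8% of all genes. Slc30a8 was highest and Slc39a8, a zinc and manganese importer, lowest at -4.12 or less.

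Gene families defined by their symbols differed in how far they leaned to the ductal side. Of 46 translation initiation factors 27 were at least 2-fold lower in beta cells and none 2-fold higher, with a median of -1.37 (-0.21 by loess). Of 74 mitochondrial ribosomal proteins 20 (27.0%) were, a share near the 25.8% of all genes. Zinc finger genes of the Zfp series were near equal, with 4 of 177 at least 2-fold higher and 24 lower. Of 10 cathepsins, the lysosomal proteases, 6 were at least 2-fold lower, among them Ctsb (6.44 in beta against 10.08 in wild-type ductal cells), while Ctss, the cathepsin of antigen-presenting cells, was higher (6.68 against 4.78). Hox factors, which pattern the body axis, were at least 2-fold higher in 3 of 13 (1 with levels raised to the floor) and never 2-fold lower. Rab GTPases, which direct vesicle traffic, were at least 2-fold lower in 17 of 55 and higher in 1. That lower share of 30.9% was near the 25.8% of all genes, and by loess 11 were 2-fold lower.

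Among the 20 genes with the largest positive differences, with levels raised to the floor, some stood outside the hormone and acinar lists. Trdn, triadin, known from calcium release in muscle, read 11.25 in beta, 5.71 in wild-type ductal and 7.04 in Fbw7-deleted ductal cells, 46.6-fold higher. Its 19 probe sets were all higher in beta cells, by log2 0.08 to 6.76. Some of them lay below the floor on both arrays, such as the one at 0.08 (5.27 in beta and 5.19 in wild-type ductal cells). Peg3, an imprinted zinc finger gene expressed from the paternal allele, read 9.80 in beta and 6.34 on both ductal arrays, 11.04-fold higher. Klk1b5, a kallikrein protease, was at least 8.41-fold and Iqca at least 8.48-fold higher. On the ductal side Chil1, a chitinase-like glycoprotein, was at least 45.6-fold lower, Heg1, a transmembrane mucin-like protein, 40.8-fold lower, Prg4, the lubricant proteoglycan of serosal and joint surfaces, at least 33.2-fold lower and Cyp1b1, a cytochrome P450, 34.4-fold lower. At 16-fold or more, with levels raised to the floor, 8 genes (0.0718%) were higher and 60 (0.539%) lower.

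Of the genes at least 2-fold apart, 321 had further single-gene probe sets above the floor, 540 in all. Of these, 483 had the same sign, 28 the opposite sign and 29 were identical. In 7 genes a further probe set was 2-fold apart in the opposite direction, such as Ppp2r5c, a phosphatase subunit, with log2 2.65 in the probe set used and -1.20 in another. Sf3b4, a splicing factor subunit, had 1.51 and -1.82.

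Genes at the thresholds show how close a count lies. Just above the floor were Ppp1r32 (5.30 in beta cells), Qrich2 and Mro, and just below it Zfp945, Pcdh18 and Atr (5.23 in wild-type ductal cells). Just inside 2-fold higher were Rn7sk, Batf and Ramp1 (1.0007, 1.002 and 1.002) and just outside it Shisa2, Tmod2 and Tspyl5 (0.9997, 0.9983 and 0.9955). On the lower side Prmt1, Acyp2 and Ilf2 lay just inside, at -1.0006, -1.0012 and -1.0013, and Uso1, Ccar1 and Cd74 just outside, at -0.9998, -0.9998 and -0.9994.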

How the data were processed

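RNA from sorted mouse pancreatic cells, 1 pool of mice per group, was hybridized to mouse gene arrays. The values are log2 intensities per probe set that the authors deposited, made with RMA per the submitters' processing notes. Its version and the set of arrays it was run on together were not given in the sources used here. Per the labels' protocols, 18 ng of RNA from 30000 cells was amplified and labelled with biotin. The number of arrays limits the precision.

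Of 35556 probe sets, 21789 were annotated to 1 gene (21698 matched to RefSeq by gene ID), 1621 to several genes and 12146 to none. The last 2 kinds were not named, and all counts of genes leave them out. Without a floor, 2988 of the probe sets with no gene were at least 2-fold higher in beta cells and 1490 lower. Of those with several genes 172 were higher and 296 lower. A gene took its brightest single-gene probe set over the 3 arrays and entered if its higher level passed that array's median (the floor). Genes 2-fold or more apart were counted on levels as deposited, while a fold or difference given for a gene with a level below its floor used the floor. With 1 array a group no test was made. Named genes are members of the lists, the 20 largest differences on each side with the floor as lowest level (without predicted, RIKEN, receptor, small RNA, immunoglobulin and T cell receptor genes), the extremes of symbol families, genes at the thresholds and genes whose probe sets disagreed. The members and lists were chosen with earlier results of these data known. Promoters are RefSeq windows of 300 bases, held for 8890 compared genes.

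Other settings tried were the floor (none, 75th percentile, levels raised to it), the scaling (quantile, centring, a loess trend of span 0.3), the probe set rule, thresholds of 1.5-fold and 4-fold, and the deleted ductal array; centring over the genes compared was chosen after seeing the data. The steps were tested on simulated data. The software was Python 3.11.15, pandas 2.3.3, numpy 2.4.6, matplotlib 3.10.9 and, for loess, statsmodels 0.14.6.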

Additional observations from a re-analysis of the deposited data

How the results depend on the processing

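The count of 710 genes 2-fold higher in beta cells was 1478 without a floor, 394 with the floor at the 75th percentile, 327 when levels below the floor were set to it, 1189 under quantile normalization, 1411 with each array centred over the genes compared (chosen after seeing the data), 1558 at 1.5-fold and 102 at 4-fold. The count of 2875 lower genes was 1809 with the loess trend removed and 1151 at 4-fold. Under the other settings run, these counts stayed within 1.5 times of the main ones. Without a floor the median of the acute phase list turned to 0.27 and that of serpins to 0.34, by loess that of ribosomal proteins turned to 0.28, and with the floor at the 75th percentile that of all keratins turned to -1.82. Of the named genes, Krt8 was 0.046 by loess, and Zyx was 1.32 by loess and 1.07 after quantile normalization. Against the deleted ductal array Cpa1 was -0.084, Nr5a2 -1.16, Ttr -0.19, Cdh1 -2.25, Krt23 -1.32 and Pigr -2.61. Each of these is opposite in sign to its main value. Values under 2-fold in both settings also changed sign, in 13 values of 9 named genes, 11 medians of 5 lists and 17 medians of 11 families. Over all settings, 42 values of the 168 named genes were no longer 2-fold apart and 24 newly were without a change of sign; for the medians of 42 lists these numbers were 36 and 12, and for 38 families 14 and 9. The cause was not tested, except that fewer or more genes are counted under another floor or threshold by construction.

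No paired analysis was possible because each group is 1 array, and leaving out an array was not possible for the same reason. Every value rests on 1 pool of mice per group. Signal near the floor limits what can be read, as for Pdx1, Cftr and Neurod1, and exact ties between arrays pull list medians to 0.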
